A study of Mus musculus with 3 samples.

Results

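The T cell receptor alpha chain is made by joining a V gene (TRAV) to a J gene (TRAJ), and TRAV21-DV12, TRAV17 and TRAV19 are the 3 TRAV genes found here that lie nearest the TRAJ genes. They were chosen by name and position, with it known that TRAV21-DV12 had several sequences in more than 1 library, so the sharing of sequences between libraries is described below and not tested. Of 5269 cells with a productive alpha chain (TRA) contig, 227 had 1 of the 3 genes. TRAV21-DV12 was found in 154 cells, TRAV17 in 66 and TRAV19 in 7. A rearrangement is counted here as a V gene, a nucleotide CDR3 (the junction that contacts antigen) and a J gene within a library, and the 3 genes made up 141 of 3325 TRA rearrangements.

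All cells were CD45+ immune cells sorted from sciatic nerves of neuropathic NOD.AireGW/+ mice, which carry 1 mutant copy of Aire on the NOD background and develop autoimmune neuropathy. Aire is the thymic factor that lets developing T cells meet tissue proteins. Replicates 1 and 2 were 1 mouse each and replicate 3 pooled 2 mice, with 1 condition and no control group, and the labels give no age. The files list receptors only, so the T cell subset of each cell was not analysed here.

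At the alpha locus a developing T cell can rearrange the same allele more than once. A first join removes the DNA between its V and J genes, and each later join uses a V gene farther upstream and a J gene farther downstream. TRAJ genes are numbered downwards from the V side, so a high TRAJ number lies nearest the V genes. TRAV genes with DV in their name can also be used by delta chains.

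In the C57BL/6 reference (GRCm38, chromosome 14, plus strand), TRAV17 lies at chr14:53806639-53807115, TRAV19 at chr14:53845234-53845827 and TRAV21-DV12 at chr14:53875984-53876752. TRAV21-DV12 ends 278 kb before the first TRAJ segment, TRAV19 309 kb and TRAV17 348 kb. TRAV18, TRAV23 and the pseudogenes TRAV20 and TRAV22 also lie in this stretch and had 0 contigs on any barcode. The order of the genes on the NOD chromosome was not examined. The germline V ends, from the first base of the CDR3, and the J segments of the shared sequences, up to its last base, are shown because the capitals further on mark what differs from them.
TRAV21-DV12 end, chr14:53876737-53876752: tgtatcctgagagtag
TRAV17 end, chr14:53807102-53807115: tgtgcactggaggg
TRAV19 end, chr14:53845815-53845827: tgcgcagcaggtg
TRAJ57 start, chr14:54158505-54158538: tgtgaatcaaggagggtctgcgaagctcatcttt
TRAJ58 start, chr14:54157280-54157311: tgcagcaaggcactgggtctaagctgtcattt
TRAJ42 start, chr14:54175773-54175805: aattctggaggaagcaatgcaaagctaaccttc
TRAJ33 start, chr14:54185358-54185383: tggatagcaactatcagttgatctgg

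TRAV21-DV12 contigs of replicates 2 and 3, for which framework bases were deposited, were the same in all 83 contigs and differed from the reference at 2 of 261 bases. The 23 TRAV17 contigs differed at 3 of 270 bases and the 4 TRAV19 contigs at 3 of 267. The names therefore stand for the NOD alleles closest to these reference genes.

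The libraries held 1231, 1700 and 394 TRA rearrangements in replicates 1, 2 and 3, from 1989, 2819 and 461 cells with a TRA and a median of 5, 3 and 3 unique molecules (UMIs) per TRA contig. Cell barcodes found in more than 1 library numbered 7 for replicates 1 and 2 and 3 for replicates 2 and 3, of which 1 carried a TRA of the 3 genes, and no barcode had the same TRA in both libraries.

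TRAV21-DV12 was the most used of the 3 genes in each library. TRAV21-DV12 accounted for 3.25% of TRA rearrangements in replicate 1 (exact 95% interval, 2.33% to 4.40%), 2.82% in replicate 2 (2.09% to 3.73%) and 3.81% in replicate 3 (2.15% to 6.20%), or 3.29% ± 0.493 (SD, n = 3). TRAV17 accounted for 1.38%, 0.706% and 0.508%, or 0.865% ± 0.458 (SD, n = 3), and the intervals of the 3 libraries overlapped. TRAV19 accounted for 0.244%, 0.176% and 0.254%, which rests on 3, 3 and 1 rearrangements. Intervals cover counting error only.

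TRAV21-DV12 was joined to TRAJ genes of the V side in every library. Its 40 rearrangements of replicate 1 had a mean TRAJ number of 48.9, its 48 of replicate 2 a mean of 47.2 and its 15 of replicate 3 a mean of 47.3. All TRAV genes other than the 3 averaged 33.1, 32.5 and 32.8 in the same libraries. The means of TRAV21-DV12 thus lay above those of the other genes in each library, with no overlap between libraries.

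The medians of TRAV21-DV12 were 49.5, 49 and 52, against 32, 32 and 33. Its numbers ran from 15 to 58. The 9 TRAJ genes numbered under 15, at the far end of the cluster, held 0 of its 103 rearrangements, which allows up to 2.91%, against 377 of 3184, 11.8%, for the other genes. Of its 103 rearrangements, 6 used a TRAJ number under 30, or 5.83%, against 39.3% of those of the other genes.

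In a limma fit over 52 TRAV genes with at least 5 rearrangements in at least 2 libraries, the TRAJ number of TRAV21-DV12 was 15.04 ± 1.09 (SE) above that of all other TRAV genes (adjusted p = 2.6e-10), the highest of the 52. Differences from the other genes were 15.7, 14.7 and 14.4 in replicates 1, 2 and 3. In this comparison 26 of the 52 genes, 50%, passed the test and 23.1% passed with a higher number, so a departure by itself was common. The difference of TRAV21-DV12 from the next genes in the order was not tested, and in replicate 3 TRAV3-1 stood higher, at 16.7.

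TRAV17 also had higher TRAJ numbers. Its 17, 12 and 2 rearrangements had means of 43.5, 40.5 and 37.0, all above the means of the other genes in those libraries. Replicate 3 had too few to enter the fit, in which the difference was 8.97 ± 2.11 (SE, 2 libraries, adjusted p = 0.0014, limma), the sixth highest. Of its 31 rearrangements, 4 used a TRAJ number under 30 and 6 one above 55, and their range, 15 to 58, was that of TRAV21-DV12. The difference between the 2 genes was not tested.

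TRAV19 had 7 rearrangements, each in 1 cell, and could not be fitted. They used TRAJ57 in 3, TRAJ58, TRAJ49 and TRAJ48 in 1 each, and TRAJ2, at the far end of the cluster, in 1. The TRAJ2 rearrangement brought the mean of replicate 1 to 38.7, against 51.7 and 57 in the others.

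**Figure D1:**
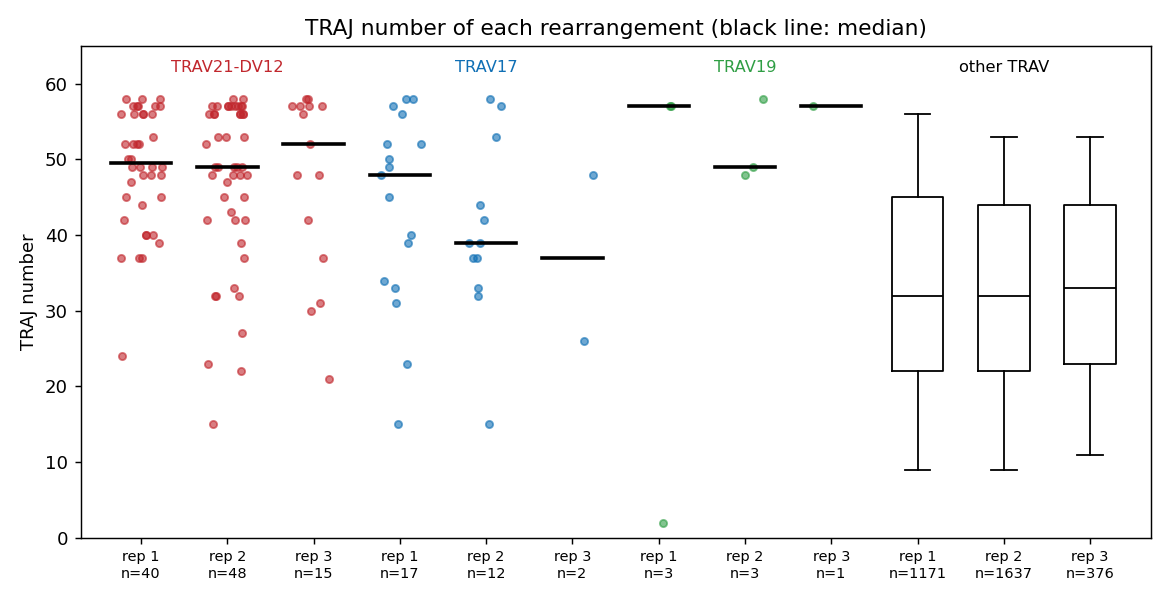
TRAJ number (vertical axis) of each rearrangement of TRAV21-DV12, TRAV17 and TRAV19 in each library, with the median as a black line; boxes for all other TRAV genes give the quartiles and whiskers the 5th to 95th percentiles. The medians of TRAV21-DV12 lie between 49 and 52 and those of the other genes at 32 and 33.

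The 3 TRAJ genes nearest the V genes, among those used in these libraries, were used more often, though they made up only part of the difference. Without TRAJ56, TRAJ57 and TRAJ58, the other 65 rearrangements of TRAV21-DV12 had a mean TRAJ number of 42.7, against 31.4 over 3020 rearrangements of the other genes (libraries summed, values with no test). In an edgeR fit of TRAJ use by the 3 V genes against all other TRAV genes, with library as a term, 3 of 42 TRAJ genes passed, 7.14%, all of them higher. They were TRAJ57 (log2 fold change of 3.13, adjusted p = 4.9e-08), TRAJ58 (2.54, adjusted p = 0.00095) and TRAJ56 (2.29, adjusted p = 0.00095).

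TRAJ57 made up 8 of 60, 10 of 63 and 5 of 18 rearrangements of the 3 V genes, or 13.3%, 15.9% and 27.8%, against 2.05%, 2.02% and 0.532% of the other genes. TRAJ58 made up 8.33%, 6.35% and 11.1%, against 1.54%, 1.04% and 1.60%. TRAJ56 made up 10.0%, 11.1% and 5.56%, against 2.05%, 1.89% and 2.39%. For each of these TRAJ genes, every library of the 3 V genes lay above every library of the others.

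For TRAV21-DV12 alone the same 3 of 41 TRAJ genes, 7.32%, passed in edgeR. TRAJ57 held 5, 9 and 4 of its rearrangements, or 12.5%, 18.8% and 26.7% (log2 fold change of 3.24, adjusted p = 3.8e-06). TRAJ56 held 5, 7 and 1 (2.63, adjusted p = 0.0010) and TRAJ58 held 3, 2 and 2 (2.35, adjusted p = 0.038). TRAJ49 and TRAJ48 followed with 9 each, or 8.74%, against 127 and 121 of 3184 for the other genes, and did not pass (log2 fold changes of 1.14 and 1.16). In all, TRAJ numbers above 55 were found in 32.5%, 37.5% and 46.7% of TRAV21-DV12 rearrangements and in 5.64%, 4.95% and 4.52% of those of the other genes.

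These calls rested in part on single libraries. For the 3 V genes TRAJ57 passed in edgeR without any 1 library, while TRAJ56 and TRAJ58 did not pass without replicate 1 (adjusted p = 0.48 and 0.29), without replicate 2 (0.62 and 0.51) or in DESeq2 (0.19 and 0.15). With chains of at least 3 UMIs TRAJ57 stood at 3.27 (adjusted p = 0.13, edgeR). For TRAV21-DV12 alone TRAJ57 did not pass without replicate 2 (adjusted p = 0.36), TRAJ56 without replicate 1 or 2, and TRAJ58 without any 1 of the libraries. With any 1 library left out the log2 fold changes of these TRAJ genes were 2.02 to 3.66 in both comparisons, and they were lower with TMM scaling or DESeq2. For TRAV21-DV12 they were 2.04, 1.40 and 1.11 (TRAJ57, TRAJ56 and TRAJ58) with edgeR's TMM scaling, under which 14 of 41 TRAJ genes passed and TRAJ58 did not (adjusted p = 0.16), and 2.81, 1.80 and 1.60 with DESeq2, which called TRAJ57 alone. TRAV17 used no TRAJ gene in more than 3 of its 31 rearrangements. TRAJ58 and TRAJ39 were found in 3 each.

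**Figure D2:**
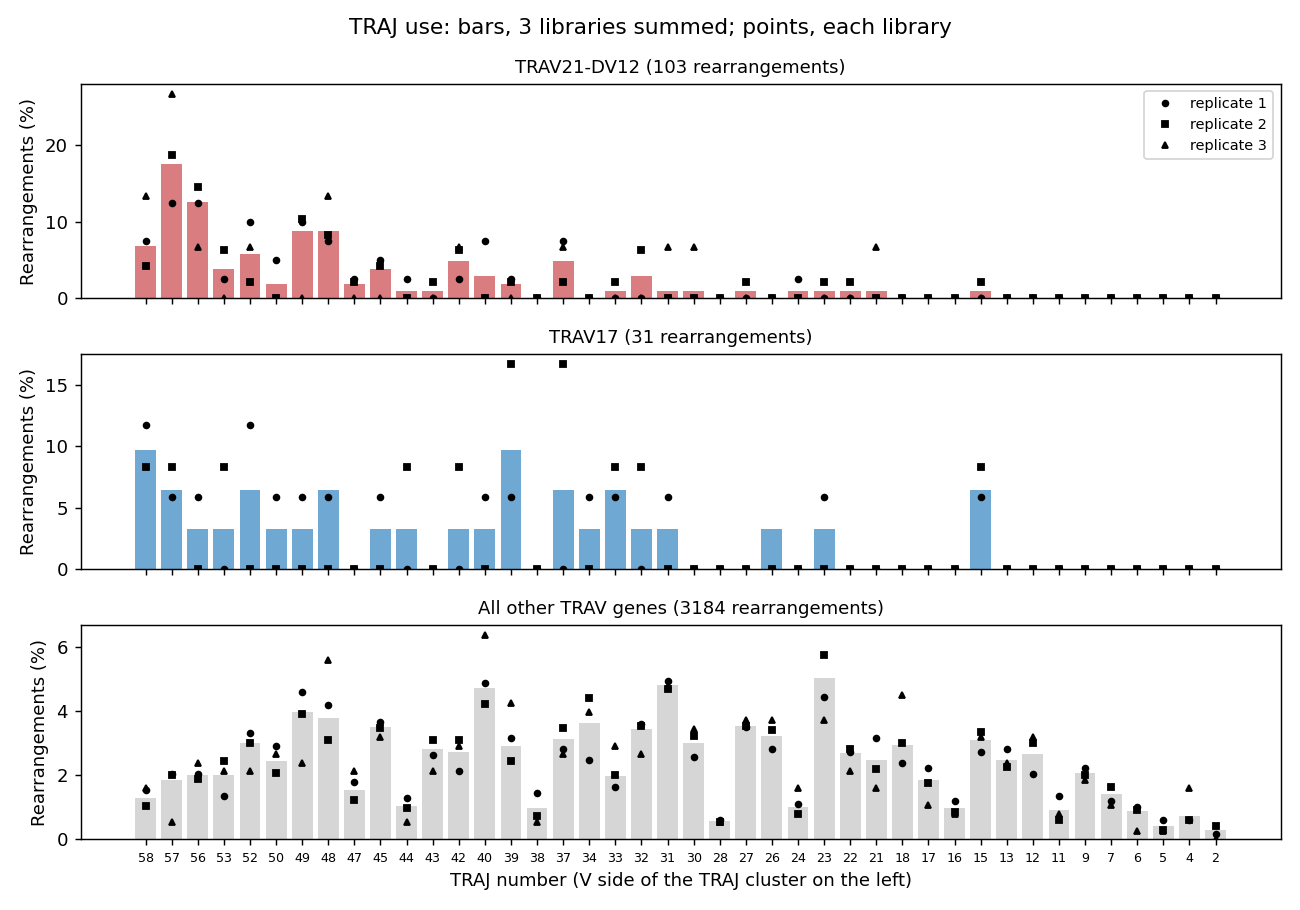
Share of rearrangements (%, vertical axes of different scale) using each TRAJ gene, ordered from the V side on the left, for TRAV21-DV12, TRAV17 and all other TRAV genes. Bars sum the 3 libraries and points give each library (replicate 3 is not drawn for TRAV17, where it had 2 rearrangements); TRAJ57 reaches 17.5% for TRAV21-DV12 and 1.85% for the other genes.

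The fitted V genes nearest the TRAJ cluster had high TRAJ numbers too, but this ended within the first 6, and distance in the reference did not order the genes as a whole. The 3 fitted genes next upstream were TRAV14-3 (9.61 above the rest, adjusted p = 0.00048), TRAV13-4-DV7 (9.10 ± 1.64 SE, adjusted p = 0.00014) and TRAV5-4 (6.73 ± 0.78, adjusted p = 5.4e-07), all by limma. TRAV14D-3-DV8, 1076 kb before the TRAJ genes, stood at 11.45 ± 2.22 and TRAV3-1, at 1574 kb, at 9.32 ± 1.65. The 5 lowest were TRAV9N-4 (-11.68), TRAV6-3 (-11.22), TRAV8N-2 (-10.05), TRAV9-4 (-8.44) and TRAV1 (-7.77), the last at 1726 kb. TRAV9-4 lies at 478 kb, next upstream of TRAV5-4 among the fitted genes.

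Across the 52 genes Pearson's r of distance and TRAJ number difference was -0.20 and Spearman's rho -0.17, a description across genes that share libraries and, in part, sequence. Genes with D or N right after the family number, such as TRAV14D-3-DV8 and TRAV9N-4, belong to duplicated blocks of the mouse locus. Reads of such copies and of their counterparts without the letter, such as TRAV14-3, TRAV5-4 and TRAV9-4, can be hard to tell apart. The 3 V genes have no such copy in the names used here.

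**Figure D3:**
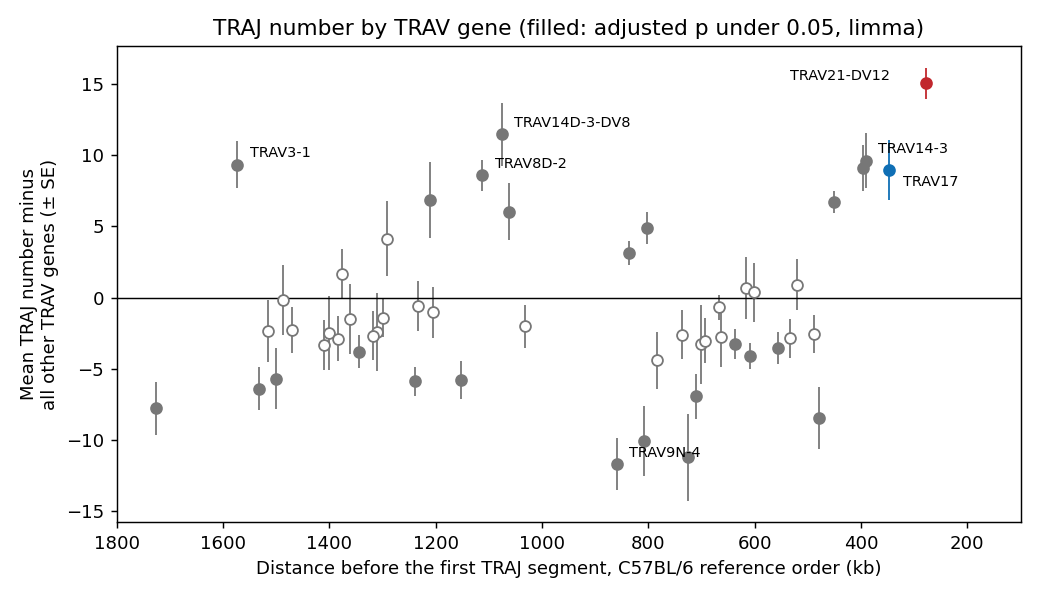
Mean TRAJ number minus that of all other TRAV genes (± SE, vertical axis) for the 52 fitted genes by distance before the first TRAJ segment in the reference (kb). TRAV21-DV12 is the nearest fitted gene and the highest at 15.04, and TRAV17 lies at 8.97; filled points passed the limma test.

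By the correlation of TRAJ use over 42 TRAJ genes with libraries summed, the genes most like TRAV21-DV12, among those with at least 50 rearrangements, were TRAV8D-2 (r = 0.69), TRAV3-1 (0.63) and TRAV16N (0.51). TRAV17 was most like TRAV21-DV12 (0.55), TRAV16N (0.50) and TRAV3-1 (0.44). The 7 rearrangements of TRAV19 were most like TRAV21-DV12 (0.73).

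TRAV21-DV12 junctions were also longer. Their CDR3 had a mean of 14.7, 14.8 and 14.3 amino acids in replicates 1, 2 and 3, against 13.5, 13.6 and 13.6 for all other TRAV genes. The limma difference was 1.14 ± 0.12 (SE, adjusted p = 2.5e-13), the second highest of 52 genes, of which 21, 40.4%, passed and 17.3% passed as longer. Against other TRAV genes joined to the same TRAJ gene, an alternative added after seeing the data, it was 0.86 (adjusted p = 0.0011, limma). Without replicate 2 it was 1.04 (adjusted p = 0.079) and 1 of the genes passed. TRAV17 stood at 0.39 ± 0.23 above the rest (adjusted p = 0.14), and with library medians at -0.59.

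Bases that matched neither the germline V end nor the J segment averaged 3.4 to 4.5 per TRAV21-DV12 junction over the libraries. The difference from the other genes was -1.04 ± 0.31 (SE, adjusted p = 0.051, limma), where 15 of 52 genes, 28.8%, passed. For TRAV17 it was -0.95 ± 0.63 (adjusted p = 0.29). The reference is C57BL/6, and 8 of 68 TRAV and 7 of 42 TRAJ segments had another base in over 60% of their rearrangements in these NOD libraries. With those bases put in, an alternative added after seeing the data, the difference of TRAV21-DV12 was -0.06 (adjusted p = 0.90).

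Of the TRAV21-DV12 sequences shared between libraries, most joined TRAJ57. By nucleotide, 4 of 98 distinct TRAV21-DV12 sequences, 4.08% (exact 95% interval, 1.12% to 10.1%), were found in more than 1 library, against 37 of 3142, 1.18% (0.83% to 1.62%), for the other TRAV genes. TRAV17 had 0 of 31, which allows a share of up to 9.68%, and TRAV19 had 0 of 7. Shared sequences were found in 20 of 68 TRAV genes, and TRAV9-1 had more of them, 6 of 165. The 4 are shown because 3 of them differ by a single base, in capitals, that matches neither segment.
TRAJ57, replicates 2 and 3: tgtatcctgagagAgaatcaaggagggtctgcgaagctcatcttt
TRAJ57, replicates 2 and 3: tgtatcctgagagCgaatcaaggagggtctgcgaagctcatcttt
TRAJ57, replicates 1, 2 and 3: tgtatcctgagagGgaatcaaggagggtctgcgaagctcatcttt
TRAJ58, replicates 2 and 3: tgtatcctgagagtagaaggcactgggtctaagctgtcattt

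The TRAJ58 sequence consists of germline bases throughout. The 4 shared sequences had a mean of 0.75 unmatched bases and the 94 found in 1 library a mean of 4.596. These bases were counted against the reference strain and can include bases of the NOD J segment. Among the 94, the J match stopped at the same length in every TRAJ37, every TRAJ45 and every TRAJ32 sequence. The shared sequences used only TRAJ57 and TRAJ58. How much of the difference in means remains with NOD bases put in was not tested. Each shared sequence was carried by 1 or 2 cells per library, and where 2 cells of a library carried one, their TRB chains differed. Without replicate 2, 1 of the 4 was still shared, and without replicate 3 also 1.

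By amino acid, 6 of 94 TRAV21-DV12 sequences and 1 of 30 TRAV17 sequences were found in more than 1 library, or 6.38% and 3.33%, against 2.58% (79 of 3060) for the other genes together. TRAV5-4 and TRAV9-1 had 8 each (4.17% and 5.10%), TRAV13-1 had 7 and TRAV12D-2 had 6 (5% each). Of the 6 of TRAV21-DV12, TRAJ57 accounted for 4. The others used TRAJ58 and TRAJ42. Further nucleotide forms of these amino acid sequences are shown because they come from different junctions, with capitals as before.
TRAJ57, replicate 2, same amino acids as the third sequence above: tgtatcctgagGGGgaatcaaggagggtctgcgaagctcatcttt
TRAJ57, replicate 2, same amino acids again: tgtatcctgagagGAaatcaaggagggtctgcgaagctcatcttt
TRAJ57, replicate 1, 4 cells: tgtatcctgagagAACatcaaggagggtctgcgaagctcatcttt
TRAJ57, replicate 3, same amino acids as the one before: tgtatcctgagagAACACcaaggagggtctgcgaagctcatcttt
TRAJ42, replicate 1: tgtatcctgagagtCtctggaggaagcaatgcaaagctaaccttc
TRAJ42, replicate 3, same amino acids as the one before: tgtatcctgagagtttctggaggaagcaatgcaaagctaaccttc
TRAV17 with TRAJ33, replicate 1, 4 cells: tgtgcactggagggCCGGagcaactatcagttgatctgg
TRAV17 with TRAJ33, replicate 2, 2 cells: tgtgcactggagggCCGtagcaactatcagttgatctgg

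TRAV21-DV12 with TRAJ57 was found in 18 rearrangements and 26 cells, with 14 distinct nucleotide and 11 distinct amino acid sequences, and 14 of the 18 had a CDR3 of 45 bases. The 18 rearrangements made up 22.0% of all 82 TRAJ57 rearrangements. Many of the cells with a CDR3 of 45 bases had a similar beta chain (TRB), mainly in replicate 2. Of 19 such cells with a TRB, 11 had TRBV13-2 with TRBJ2-5 and a TRB CDR3 of 36 bases, or 1 of 4, 8 of 11 and 2 of 4 in replicates 1, 2 and 3. Without replicate 2 it was 3 of 8 cells, 37.5%, against 57.9% over all libraries. TRBV13-2 here includes contigs named TRBV12-2+TRBV13-2, since the files give some identical TRB junctions both names. This TRB group was defined after its values were seen and gets no test.

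The same kind of TRB was found in 0 of 117 cells with TRAV21-DV12 and another TRAJ, which allows up to 2.56%, in 1 of 112 cells with TRAJ57 and another TRAV, in 0 of 61 TRAV17 cells (up to 4.92%) and in 10 of 4709 cells with a TRA outside the 3 genes, 0.212%. Seen from the other side, 20 cells of the series had such a TRB, and 11 of them, 55%, had TRAV21-DV12 with TRAJ57 and 45 bases. Of the others, 8 had only other TRAs and 1 had none. A cell with 2 TRAs was counted under each of them, so the groups above overlap. The 10 cells include cells of replicate 2 that also had TRAV21-DV12 with TRAJ57 and 45 bases.

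**Figure D4:**
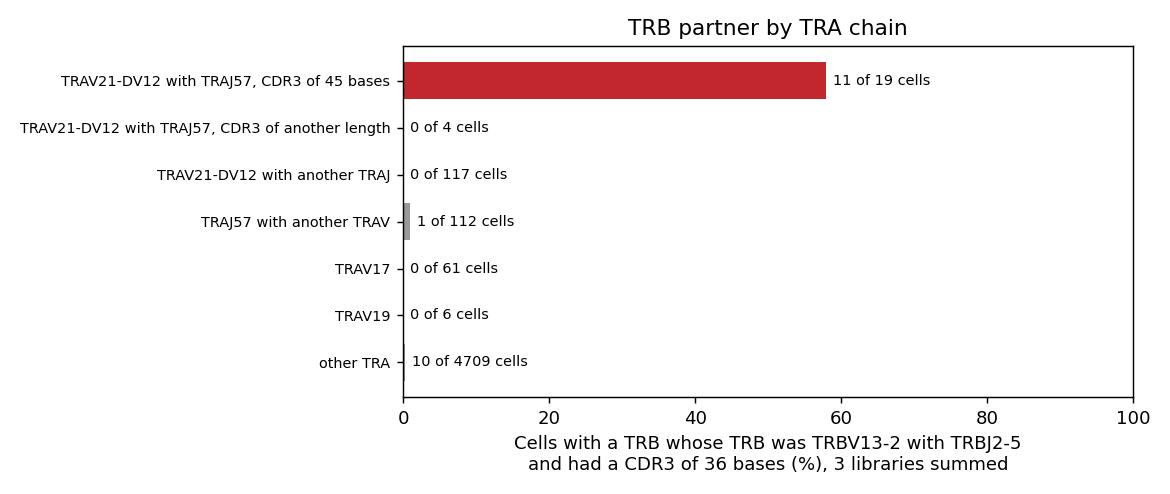
Share of cells with a TRB (%, 3 libraries summed) whose TRB was TRBV13-2 with TRBJ2-5 and a CDR3 of 36 bases, by TRA chain; numbers beside the bars give the cells. The bar for TRAV21-DV12 with TRAJ57 and 45 bases stands at 57.9% (11 of 19 cells) and that for other TRAs at 0.212%. A cell with 2 TRAs is counted in each bar it belongs to, so the bars overlap.

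The 11 cells had 11 different pairs of nucleotide sequences, with 7 TRA and 10 TRB sequences, so no pair of them had the same TRA and TRB. Their amino acid sequences fell into 6 pairs. Over the 15 residues of the TRA CDR3 only residue 5 varied, and over the 12 residues of the TRB only residues 5 and 6. The pair found most often was seen in 5 cells and in all 3 libraries. TRA contigs of the 11 cells had 1 to 8 UMIs (median 4), with 8 of the 11 above 1, and TRB contigs 2 to 14. In replicate 2, the 2 cells with the third TRAJ57 sequence above, 1 of them in the pair found most often, each had 2 TRAs. So did 1 of the 2 cells with GA in capitals. In such cells the TRA that goes with the TRB cannot be told, and doublets were not excluded. The TRB sequences of the pair found most often are shown with the library of each because they differ in bases and not in amino acids. No germline match was made for TRB, so they have no capitals.
Replicate 1: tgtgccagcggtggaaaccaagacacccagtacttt
Replicate 2: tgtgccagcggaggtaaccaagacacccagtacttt
Replicate 2: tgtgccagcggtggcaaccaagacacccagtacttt
Replicate 2: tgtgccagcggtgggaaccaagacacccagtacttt
Replicate 3: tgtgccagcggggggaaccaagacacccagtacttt

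In total, 3 pairs of TRA and TRB amino acid sequences with TRAV21-DV12 were found in more than 1 library, the one above and 2 found in replicates 1 and 3. The first of these joined the TRAJ57 sequences with AAC and AACAC in capitals to TRBV13-3 and TRBJ2-7, in 3 cells of replicate 1 and 1 cell of replicate 3, and the TRB sequences differed at 2 bases. They are shown because the TRA also differed, at 1 base.
Replicate 1: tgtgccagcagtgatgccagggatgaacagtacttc
Replicate 3: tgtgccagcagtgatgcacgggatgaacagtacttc

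The second joined the TRAJ42 sequences to TRBV16 and TRBJ2-7 in 1 cell of each library. TRA and TRB differed at 1 base each, and the TRA of replicate 3 rested on 1 UMI. The TRB sequences are shown for that single base.
Replicate 1: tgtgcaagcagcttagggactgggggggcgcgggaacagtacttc
Replicate 3: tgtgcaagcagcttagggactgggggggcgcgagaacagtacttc

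The TRAV17 sequences with TRAJ33 had a similar partner in each library, TRBV13-2 with TRBJ2-3, in 4 cells of replicate 1 and 2 of replicate 2. The TRB amino acid sequences differed at 1 residue. They are shown because the bases differ at more places than the residues do.
Replicate 1: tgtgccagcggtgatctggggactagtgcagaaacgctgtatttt
Replicate 2: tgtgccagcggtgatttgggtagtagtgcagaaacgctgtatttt

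No TRBV gene passed as a partner of the 3 genes. Over 113 distinct pairs from cells with 1 TRA and 1 TRB, 0 of 20 TRBV genes passed in edgeR, 0%, with 1 at an unadjusted p under 0.05, and DESeq2 also called 0. That 1 gene, named after its values were seen, was TRBV29, with 0 of 113 pairs, which allows up to 2.65%. The other genes had 84 of 2469, 3.40%, which is 1.28 times that limit, and TRBV29 did not pass (adjusted p = 0.52, edgeR). For TRAV21-DV12 alone 0 of 20 passed too, with 1 at an unadjusted p under 0.05. TRBV12-2+TRBV13-2 was the most frequent partner, with 3 of 49, 13 of 50 and 4 of 14 pairs, or 6.12%, 26.0% and 28.6%, against 9.76%, 10.5% and 10.9% (log2 fold change of 0.80, adjusted p = 0.52). Under this name replicate 1 lay below the other genes and replicates 2 and 3 above them, and without replicate 1 the change was 1.32 (adjusted p = 0.028, edgeR). The pairs of replicates 2 and 3 include receptors of TRAV21-DV12 with TRAJ57 and TRBJ2-5 described above. The change without those receptors was not tested. With both names counted as TRBV13-2, an alternative added after seeing the data, all 3 libraries lay above, at 16.3%, 32% and 28.6% against 14.6%, 14.9% and 16.9% (0.63, adjusted p = 0.45, edgeR). TRBV1 and TRBV5 followed with 12 pairs each, TRBV13-1 with 9, and TRBV13-2, TRBV16 and TRBV13-3 with 8.

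No TRAV gene passed the test for expanded rearrangements, those found in more than 1 cell of a library. For TRAV21-DV12 they numbered 9 of 40, 13 of 48 and 2 of 15, or 22.5%, 27.1% and 13.3%, against 21.4%, 23.3% and 14.4%. For TRAV17 they numbered 7 of 17, 4 of 12 and 0 of 2, or 41.2%, 33.3% and 0%, above the other genes in replicates 1 and 2. The 7 include a TRAJ15 and a TRAJ57 rearrangement of 3 cells each, all with 2 TRAs and the same TRBV20 chain. These can be the 2 TRAs of 1 clone, counted here as 2 rearrangements. TRAV19 had 0 of 7. In edgeR 0 of 55 TRAV genes, 0%, passed, with 2 at an unadjusted p under 0.05 and 0 called by DESeq2. The log2 fold changes were 0.15 for TRAV21-DV12 (adjusted p = 0.90) and 0.96 for TRAV17 (adjusted p = 0.84).

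The TRAV17 and the TRAV21-DV12 rearrangement found in most cells both lay in replicate 1. A TRAV17 rearrangement with TRAJ45 was found in 17 cells there, and all 15 with a TRB had the same TRBV5 and TRBJ2-7 chain. The next of TRAV17 was in replicate 2, with TRAJ39 in 7 cells, all with the same TRBV15 chain. With 4 cells, TRAJ23 and TRAJ33 rearrangements of replicate 1 shared the third place. TRAV21-DV12 with TRAJ58 was found in 12 cells of replicate 1, of which 9 had the same TRBV31 and TRBJ2-7 chain, and 4 TRB chains were seen in all. TRAV21-DV12 with TRAJ45 was found in 7 cells, 5 of them with the same TRBV12-2+TRBV13-2 and TRBJ2-4 chain. TRAJ48 was found in 6, all with the same TRBV14 chain. The 4 rearrangements found in the most cells are shown, with capitals as before against C57BL/6. In both TRAJ45 sequences the J match stopped at 22 bases, as in every TRAJ45 rearrangement of the 3 genes. Their capitals can therefore include bases of the NOD J segment.
TRAV17 with TRAJ45, 17 cells: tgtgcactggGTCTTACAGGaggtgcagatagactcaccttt
TRAV21-DV12 with TRAJ58, 12 cells: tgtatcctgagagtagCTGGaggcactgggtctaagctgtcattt
TRAV17 with TRAJ39, 7 cells: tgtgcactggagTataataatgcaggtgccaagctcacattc
TRAV21-DV12 with TRAJ45, 7 cells: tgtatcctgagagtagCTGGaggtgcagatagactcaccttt

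No nucleotide CDR3 and TRAJ gene of the 3 V genes was also found under another TRAV name.

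A T cell can carry a rearrangement on both alleles, and 30 cells with 1 of the 3 genes had 2 TRAs. Doublets also give cells with 2 TRAs. No doublet caller was run on these receptor files, no cell had more than 2 TRA contigs, and 10 of the 30 cells had 2 TRBs as well, against 103 of 446 cells, 23.1%, with 2 TRAs outside the 3 genes. Counted as rearrangements, TRAV21-DV12 made up 2.42%, 2.92% and 0% of those in cells with 2 TRAs, the last being 0 of 32, and 3.59%, 2.72% and 4.09% of those in cells with 1 TRA. By edgeR 0 of 57 TRAV genes, 0%, were more or less frequent in cells with 2 TRAs, with 3 at an unadjusted p under 0.05 and 0 by DESeq2. TRAV21-DV12 stood at -0.32 and TRAV17 at -0.34 (log2 fold changes, adjusted p = 0.99 for each). Of the 7 TRAV19 cells, 4 had a second TRA, against 9.30% of cells with a TRA outside the 3 genes. They were 3 of 3, 1 of 3 and 0 of 1 cells in replicates 1, 2 and 3, too few for a test.

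Pairs of TRAs were counted from each TRAV21-DV12 chain, so a cell with 2 such chains entered from both sides. In the 20 pairs counted this way, from 19 cells, the median TRAJ number was 56 for TRAV21-DV12 and 49 for the other chain. The other TRAJ number was lower in 15, higher in 4 and equal in 1. In 4 of the 20 the other chain was also TRAV21-DV12. These were cells counted from both sides, so lower and higher were equal among them by construction. In the remaining 16 the medians were again 56 and 49, with the other number lower in 13 and higher in 2. TRAJ numbers end at 58 here, and the other TRAV genes had a median of 32 over all libraries. A lower number in the other chain was therefore likely beforehand, and the direction was not tested. The median distance of the TRAJ numbers was 7, against 8 in 376 pairs without the 3 genes. Of TRAV21-DV12 chains in these cells, 10 had more UMIs than the other TRA, 6 had fewer and 5 the same number. Among 24 TRAV genes, 0, 0%, differed between first and second TRA in edgeR, with 0 at an unadjusted p under 0.05 and 0 by DESeq2, and TRAV21-DV12 stood at -0.55 (log2 fold change of second against first, adjusted p = 0.84). TRAV21-DV12 contigs had a median of 6, 4 and 4 UMIs, against 5, 3 and 3 for the other genes.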

How the data were processed

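CD45+ cells of sciatic nerves from NOD.AireGW/+ mice were profiled by 10X Genomics single-cell V(D)J sequencing in 3 libraries of 1 condition. The authors processed reads with Cell Ranger on mm10 (version not given in the sources used here) and deposited, for each contig, its genes, its CDR3 and counts of UMIs and reads, and for each clonotype its count of cells. Consensus files were not used. Replicate 1 was deposited with fewer columns, without framework bases.

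Productive TRA contigs of called cells were grouped into rearrangements. The members and lists were chosen with earlier results of these data known. TRAJ number, CDR3 length and unmatched bases were compared per TRAV gene as library differences, weighted by rearrangements, in limma 3.58.1 (at least 5 rearrangements in at least 2 libraries). TRAJ, TRBV and TRAV counts were compared with edgeR 4.0.16 quasi-likelihood tests (at least 10 in all, library as a term, library totals without further scaling), and with DESeq2 1.42.0 as an alternative, all with Benjamini-Hochberg adjustment at 0.05. P-values treat 3 libraries as replicates, and pool the spread over genes. They compare TRAV genes within libraries, not conditions. Shares have exact (Clopper-Pearson) 95% intervals. The upper limit for a share at 0 is 3 counts of the total. Junctions were matched exactly from both ends to GRCm38 segments (GENCODE M21), leaving out 233 of 3325 rearrangements matched by under 6 bases. Scripts were tested on simulated data. Named genes were the 3 V genes, the 5 highest and 5 lowest TRAV genes, the 3 next upstream, TRAJ and TRBV genes past the test (otherwise the 5 most frequent), the 3 largest clones and every shared sequence.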

Additional observations from a re-analysis of the deposited data

Results flagged for a closer look

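Contigs outside the productive chains of called cells also carried the 3 genes, above the 3 counts that a count of 0 allows. In called cells, 14 nonproductive contigs had TRAV21-DV12 (3, 10 and 1 in replicates 1, 2 and 3), 5 had TRAV17 and 8 had TRAV19. They made up 8.24% of TRAV21-DV12 contigs (exact 95% interval, 4.58% to 13.4%), 6.76% of TRAV17 contigs (2.23% to 15.1%) and 53.3% of 15 TRAV19 contigs (26.6% to 78.7%), against 23.2% for other TRAV genes. Their median TRAJ number was 46.5 for TRAV21-DV12, 40 for TRAV17 and 57 for TRAV19, against 32 for other TRAV genes. These were not tested.

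Barcodes not called as cells held 210 contigs with TRAV21-DV12 (170, 26 and 14 in replicates 1, 2 and 3), 103 with TRAV17 and 12 with TRAV19. Their median was 1 UMI for TRAV21-DV12 and TRAV17 and 1.5 for TRAV19, and their median TRAJ numbers were 52, 45 and 49, against 27 for other TRAV genes.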

How the results depend on the processing

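No pairing between conditions was possible, because all libraries share 1 condition. The comparisons themselves are made within each library, and the count tests pair the 2 sides of each library. Among 299 values from other settings, 241 did not change direction or call, or moved little. The TRAJ number difference of TRAV21-DV12 passed in every alternative run and was 14.6 to 15.4 with a library left out. With library medians that of TRAV17 was 11.4 (adjusted p = 0.055, limma). The number of TRAV genes called for TRAJ number was 12 of 30 tested (without replicate 2) to 23 of 52 with a library left out, 16 of 30 without replicate 1, 15 with cells counted and 13 with medians. For CDR3 length it was 1 of 30 (without replicate 2) to 22 of 52 with a library left out, 6 without invariant receptors and 10 in cells with 1 TRA and 1 TRB. TRAV21-DV12 ranged from 1.04 to 1.21 with a library left out, and TRAV17 reversed to -0.59 with medians. For unmatched bases it was 0 (without replicate 3, of 52 tested, with 19 at an unadjusted p under 0.05) to 13 of 28 with a library left out, 8 with cells counted, 8 without weights, 4 with medians, 35 against the same TRAJ gene and 7 with the segment ends of these libraries. TRAV17 stood at -1.18 (adjusted p = 0.022) against the same TRAJ gene. TRAJ genes called for the 3 V genes numbered 8 with TMM, 1 with DESeq2 and 1 to 3 with a library left out. For TRAV21-DV12 they numbered 14 with TMM, 1 with DESeq2, 1 in cells with 1 TRA and 1 TRB and 0 to 2 with a library left out. TRBV genes called for the 3 V genes numbered 1 with cells counted and 0 to 1 with a library left out, and for TRAV21-DV12 alone 0 with cells counted and 0 to 1 with a library left out. TRAV genes called in cells with 2 TRAs numbered 1 with cells counted. The shared sequences were 1 to 4 with a library left out. Differences that had not passed changed sign in 3 more cases. TRAV17 in cells with 2 TRAs ranged from -1.54 to 0.11 with a library left out (0.11 without replicate 2), TRBV13-2 as partner from -0.021 (without replicate 1) to 0.79, and expanded TRAV21-DV12 rearrangements stood at -0.042 with at least 3 UMIs. The cause was not tested. The number of libraries limits the precision, and TRAV19 and TRAV17 of replicate 3 are too few for any test. Alternatives on segment ends, the same TRAJ gene, the names of TRBV13-2, the shared sequences and the receptors of TRAV21-DV12 with TRAJ57 were chosen after seeing the data.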
